A study of Mus musculus with 16 samples.

Results

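The response to Nfib was compared between cells with and without Mycl1 in the mouse small cell lung cancer line 3151T4. All 8 Affymetrix arrays of this line were used, of 16 arrays in the series, and they form 4 groups of 2. Nfib+Mycl1 cells carried both the retroviral vector MSCV-Nfib-PGK-Neo and the vector MSCV-L-myc-PGK-Puro, Mycl1 cells carried the second alone, Nfib cells carried the first alone, and control cells were untransfected. The Nfib vector encodes a FLAG-tagged mouse Nfib with a neomycin resistance gene selected with G418, and the Mycl1 vector encodes L-Myc (current symbol Mycl) with a puromycin resistance gene selected with puromycin. Both are MSCV retroviral vectors in which, as their names give, a PGK promoter drives the resistance gene. Since the control cells carried no empty vector, vector and selection cannot be told apart from the transgene in any comparison. Nfib+Mycl1 against Mycl1 adds the Nfib vector and G418 to cells that already carried a vector. Nfib against control adds them to untransfected cells. A change made by any vector or selection thus need not cancel in the interaction and cannot be told apart within it. The line was grown from 1 dissociated mouse tumour plated in serum medium, and the labels give neither the tumour's genotype nor the animal's age. The values are deposited log2 signals, with a floor near log2 2.

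Nfib (nuclear factor I/B) belongs to the NFI family of transcription factors, which bind DNA as dimers at inverted TTGGC sites and take part in lung maturation. L-Myc is a MYC family transcription factor that, with its partner Max, binds E-boxes such as CACGTG, and MYC factors are best known for raising genes of ribosome production and growth. NFIB and MYCL are both amplified in small cell lung cancer, a neuroendocrine tumour. If each factor changed a gene's log2 level independently, the change with Nfib would be the same with and without Mycl1. The interaction, written here as (Nfib+Mycl1 minus Mycl1) minus (Nfib minus control), measures the departure from that sum. A negative interaction means that Nfib+Mycl1 cells had less of the transcript than the single changes add up to.

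The Mycl probe set that reads the transgene was high in cells with the Mycl1 vector and near the floor in the others. It read 10.34 and 9.99 in Nfib+Mycl1 cells, 9.08 and 10.24 in Mycl1 cells, 2.55 and 2.12 in Nfib cells and 2.24 and 2.29 in control cells (log2 signal, replicates 3 and 4). A different Mycl probe set read 3.79 and 3.92 in Nfib+Mycl1 cells, 5.81 and 6.02 in Mycl1 cells, 3.81 and 3.00 in Nfib cells and 6.64 and 5.93 in control cells. This signal was lower with Nfib on both backgrounds, by 2.06 with Mycl1 and by 2.88 without it. None of the 4 Nfib probe sets rose with the Nfib vector, so the array gave no sign of the Nfib transgene. Their estimated changes with Nfib were all negative on both backgrounds. The brightest read 10.11 and 10.12 in Nfib+Mycl1 cells and 10.58 and 10.31 in Mycl1 cells. It read 10.40 and 9.82 in Nfib cells and 10.48 and 10.76 in control cells. Nfib signal was thus already high without the Nfib vector. Whether these probe sets can detect RNA of the transgene was not tested.

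Each array correlated best with its own replicate, at 0.992 to 0.994 over the genes tested, against at most 0.982 with an array of another group. All 10 fibroblast markers exceeded log2 4 in Nfib+Mycl1 and in Nfib cells, 8 did in Mycl1 cells and 9 in control cells. Their summed linear signal was 23411 to 26463 in Nfib+Mycl1 cells, 19632 to 20477 in Mycl1 cells, 42793 to 45037 in Nfib cells and 30158 to 30756 in control cells. Of 8 neuroendocrine markers on the array, only Ncam1, Uchl1 and Ddc exceeded log2 4 in any group, and Syp, Chga, Chgb, Insm1 and Grp stayed near the floor, which goes against a plainly neuroendocrine identity. Leukocyte markers had a summed linear signal of 343 to 354 in Nfib+Mycl1 cells, 386 to 529 in Mycl1 cells and 1079 to 1082 in Nfib cells, against 7564 to 7575 in control cells. Their median level was log2 2.62, 2.91 and 2.76 in these 3 vector groups in turn, against 5.89 in control cells. In Nfib cells only Cd74, Cd14, Cd53 and Csf1r of the 24 markers exceeded log2 4, against 17 markers in control cells. In these bulk samples, fewer cells of a type and less RNA per cell cannot be told apart, and the part of these marker differences in the results below was not tested.

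The responses to Nfib were mostly smaller with Mycl1. Of 8473 genes tested, 46 were left out because the single changes add up to a level under log2 2, which the array cannot read, and 8427 remained. The omitted genes included 13 leukocyte markers, all 13 of them with a positive interaction that passed the test, among 35 such genes in all. Among the remaining genes, 252 had an interaction at an adjusted p under 0.05 (limma, Benjamini-Hochberg), 190 of them negative (2.25%) and 62 positive (0.736%). The interaction was at least 2-fold in 235 of these 252. Without Mycl1 replicate 3 the count was 162, and without Nfib+Mycl1 replicate 4 it was 396, while the 62 positive genes numbered 23 without Nfib replicate 4, 39 without Nfib replicate 3, 27 without Mycl1 replicate 3 and 33 without control replicate 3. The 315 negative genes without Nfib+Mycl1 replicate 4 were the other count that moved by more than 1.5 times.

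With Mycl1 present, Nfib changed 860 genes, 401 higher (4.76%) and 459 lower (5.45%). Without Mycl1, Nfib changed 1748 genes, 1034 higher (12.3%) and 714 lower (8.47%). Leaving out Mycl1 replicate 3 or Nfib+Mycl1 replicate 3 gave 394 or 443 genes with Mycl1, and leaving out Nfib replicate 3 or 4 gave 1117 or 1151 without it. These responses share no arrays, and 643 genes passed in both, which is 74.8% of those with Mycl1 and 36.8% of those without it. Of the 643, 638 had the same sign. Among 847 genes changed at least 2-fold in either response, the change was smaller with Mycl1 in 721 and larger in 126.

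Genes picked for a large response tend to look smaller in another comparison, so both choices are given. Of 168 genes that rose at least 2-fold with Mycl1, 49 responded less without it, and of 194 that fell as much, 77 did. Of 471 genes that rose at least 2-fold without Mycl1, 446 responded less with it, with a median of 0.68 with Mycl1 and 1.54 without. Of 307 genes that fell as much without Mycl1, 275 responded less with it, with medians of -0.98 and -1.52. The median over all 8427 genes was -0.02 with Mycl1 and 0.04 without.

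**Figure D1:**
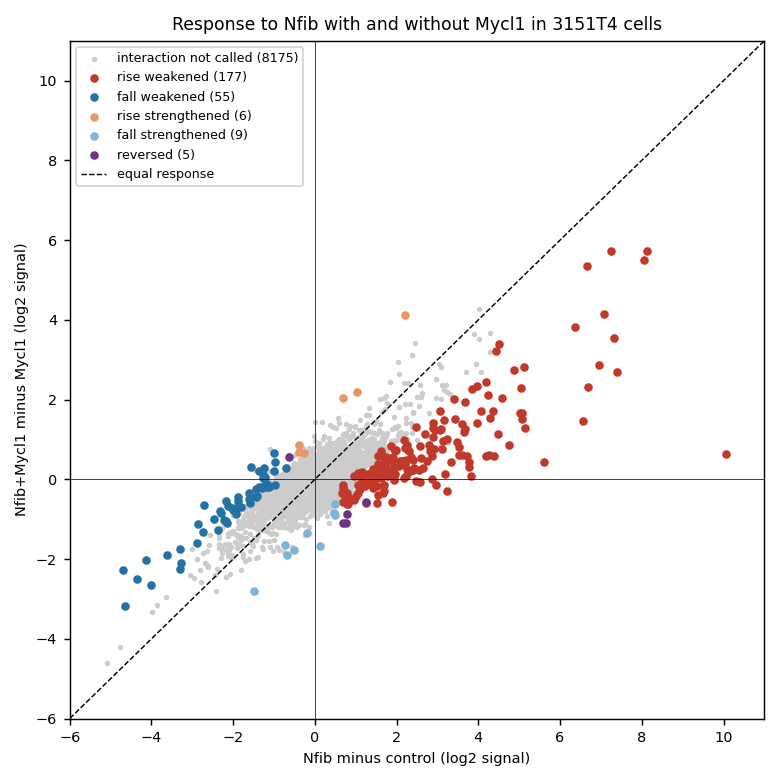
Response to Nfib with Mycl1 (vertical axis, Nfib+Mycl1 minus Mycl1) against the response without it (horizontal axis, Nfib minus control), both in log2 signal, for 8427 genes. Coloured points are the 252 genes whose interaction passed the test, the dashed line marks equal responses, and 177 weakened rises lie below it on the right while 55 weakened falls lie above it on the left.

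The 252 genes were sorted by which response passed the test. A rise or fall is called weakened where Nfib changed the gene without Mycl1 and did so less, or not past the test, with it. In 177 genes a rise was weakened, with a median response of 0.46 with Mycl1 and 2.24 without it. In 111 of them the response with Mycl1 did not pass the test, and in 159 what remained of the rise was less than what was lost. In 55 genes a fall was weakened, with medians of -0.65 with Mycl1 and -1.92 without it. A response is called strengthened where Nfib changed the gene with Mycl1 and did so less, or not past the test, without it, so it need not have been present without Mycl1. Strengthened rises numbered 6, strengthened falls 9 and reversals 5. In 3 of the 6 and 4 of the 9 the response without Mycl1 did not pass and had the opposite sign. Weakened falls numbered 20 to 36 without Nfib replicate 4, Mycl1 replicate 3, control replicate 3, Nfib replicate 3 or Mycl1 replicate 4, each in turn. Without Nfib+Mycl1 replicate 4 there were 22 strengthened rises, 37 strengthened falls and 13 reversals, and with other single arrays left out there were as few as 2, 3 and 1.

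Mycl1 alone left most weakened rises and weakened falls within 2-fold of control. Mycl1 minus control lay within 1 of 0 on the log2 scale in 140 of the 177 weakened rises, was lower by 1 or more in 33 and higher by 1 or more in 4. Of the 55 weakened falls, 35 lay within 1 of 0, 18 were lower by 1 or more and 2 higher. Many weakened rises started low, since 63 of the 177 averaged under log2 4 in control cells. In 46 of the 177 both Nfib+Mycl1 and Mycl1 cells averaged under log2 4.

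Agtr2, the type 2 angiotensin receptor, was read in Nfib cells alone. It had 2.40 and 2.66 in Nfib+Mycl1 cells, 2.18 and 1.99 in Mycl1 cells, 6.85 and 8.22 in Nfib cells and 2.00 and 1.85 in control cells. All arrays but those of Nfib cells sat near the floor. The fitted response was 0.45 with Mycl1 (adjusted p = 0.413) and 5.61 without it, and the interaction was -5.16 ± 0.45 (SE, adjusted p = 2.71e-06). Where the lower group lies near the floor, as here, in Ces2g and in many weakened rises, the fitted size of a rise depends on that floor. Such a size is not an exact fold. Agtr2 reached the signal level required for testing in Nfib cells alone, as did Scara5, Iigp1 and Id4 below. With the other groups low, a gene high in Nfib cells alone can be called only as a weakened rise. How many weakened rises were tested on this ground was not counted.

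Scara5, a scavenger receptor that takes up ferritin, read 3.23 and 3.92 in Nfib+Mycl1 cells, 2.02 and 2.2 in Mycl1 cells, 9.42 and 9.88 in Nfib cells and 3.09 and 3.08 in control cells. The Nfib arrays stood far above the rest. Its interaction was -5.10 ± 0.35 (SE, adjusted p = 1.66e-07), from a rise of 1.46 with Mycl1 and 6.57 without. Ecrg4, a secreted peptide precursor described as a growth suppressor, read 5.67 and 5.91 in Nfib+Mycl1 cells, 3.04 and 3.16 in Mycl1 cells, 10.88 and 10.74 in Nfib cells and 3.48 and 3.33 in control cells. Nfib raised Ecrg4 on both backgrounds, by 2.69 with Mycl1 and by 7.40 without, and the groups did not overlap (interaction -4.71 ± 0.28 SE, adjusted p = 5.82e-08).

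**Figure D2:**
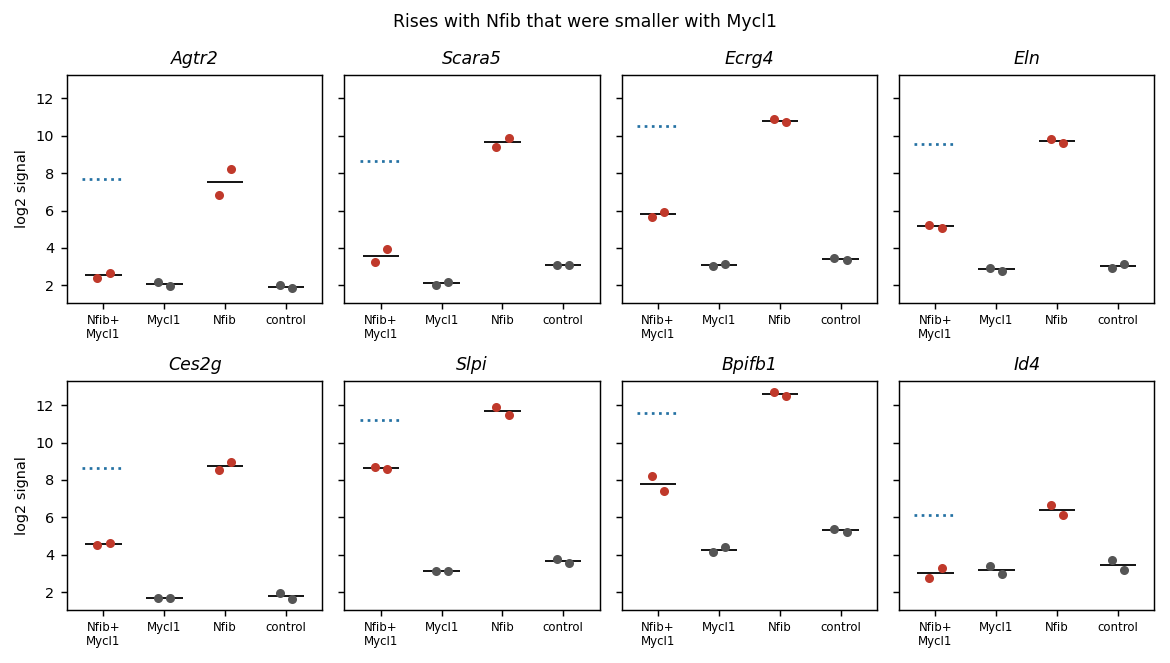
Log2 signal of 8 genes whose rise with Nfib was smaller with Mycl1, by group, with 2 arrays per group as points and their mean as a bar. Groups with the Nfib vector are red, and the dotted line is the level at which the single changes would add up. In all 8 genes the Nfib+Mycl1 arrays lie below that line and the Nfib arrays are the highest.

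Mycn, the N-Myc gene, had the most negative interaction, but its values differ in kind. One of 3 Mycn probe sets read 13.26 and 13.07 in Nfib+Mycl1 cells, 12.19 and 12.86 in Mycl1 cells, 12.59 and 12.49 in Nfib cells and 2.46 and 2.48 in control cells, and the other Mycn probe sets stayed under log2 4 in every array. The signal was thus high with each vector, by 10.05 for Mycl1 alone and 10.07 for Nfib alone. The sum of the single changes, log2 22.59, exceeds the highest value on these arrays, log2 14.38, so the interaction of -9.43 ± 0.27 (SE) could not have been near 0. It was the sole gene tested with such a sum, and the reason for the signal was not tested.

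Interferon-stimulated genes formed the group with the most weakened rises. They encode antiviral effectors, GTPases and their regulators, and are switched on through interferon response elements in their promoters. Of 29 such genes tested, 17 had a negative interaction and 0 a positive one, against 2.25% and 0.736% of all 8427 genes. The median interaction was -1.31, against -0.07 over all genes. With Mycl1, Nfib raised 5 of the 29 and lowered 3, with a median of 0.16, whereas without Mycl1 it raised 24 and lowered 3, with a median of 1.61. Mycl1 alone moved the list by a median of -0.52. All gene lists here were chosen with earlier results of these data known, so their shares are descriptions and no independent support.

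Iigp1, an interferon-inducible GTPase, read 3.55 and 3.29 in Nfib+Mycl1 cells, 2.51 and 2.62 in Mycl1 cells, 7.30 and 7.77 in Nfib cells and 2.83 and 2.74 in control cells. Ifit1, which blocks translation of viral messages, read 4.23 and 4.79 in Nfib+Mycl1 cells, 3.45 and 3.28 in Mycl1 cells, 8.70 and 8.58 in Nfib cells and 4.25 and 4.07 in control cells. Both stood out in the Nfib arrays, and the Ifit1 values of Nfib+Mycl1 cells overlapped those of control cells. The rise was 0.86 with Mycl1 and 4.75 without for Iigp1 (interaction -3.89 ± 0.31 SE, adjusted p = 9.74e-07) and 1.15 and 4.48 for Ifit1 (-3.33 ± 0.32 SE, adjusted p = 5.16e-06). Igtp, a further GTPase of this family, read 5.69 and 5.57 in Nfib+Mycl1 cells, 5.69 and 5.68 in Mycl1 cells, 8.99 and 9.04 in Nfib cells and 6.67 and 6.43 in control cells. Its response to Nfib was -0.05 with Mycl1 (adjusted p = 0.897) and 2.46 without, an interaction of -2.51 ± 0.27 (SE, adjusted p = 2.45e-05).

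The other 14 members, named after their values were seen, included sensors, effectors and the regulators Irf7 and Irf9. Irf9, the DNA-binding subunit of the interferon-activated complex, responded by -0.02 with Mycl1 and 1.94 without, and Irf7, which amplifies the response, by 0.03 and 1.61. Usp18, a protease that restrains interferon signalling, responded by 0.60 and 3.60, and Oas1a, which senses double-stranded RNA, by 0.29 and 2.64. The remaining genes were Oasl2, Trim30a, Ifit3, Dhx58, Mx1, Bst2, Parp14 and the guanylate-binding proteins Gbp2, Gbp3 and Gbp7, and across all 17 the response ranged from -0.35 to 1.71 with Mycl1 and from 1.32 to 4.75 without. The other 12 members did not pass, among them Stat2 (interaction -0.99, adjusted p = 0.119) and Ifitm1, which fell with Nfib by 1.73 with Mycl1 and by 2.35 without. The related class I antigen presentation genes, 13 tested, had a median interaction of -0.26 and 0 past the test, which in 13 genes is near the 2.99% called over all genes in either direction. The summed leukocyte signal, given above, was highest in control cells, where these interferon genes were lower than in Nfib cells; its part in the interaction was not tested.

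**Figure D3:**
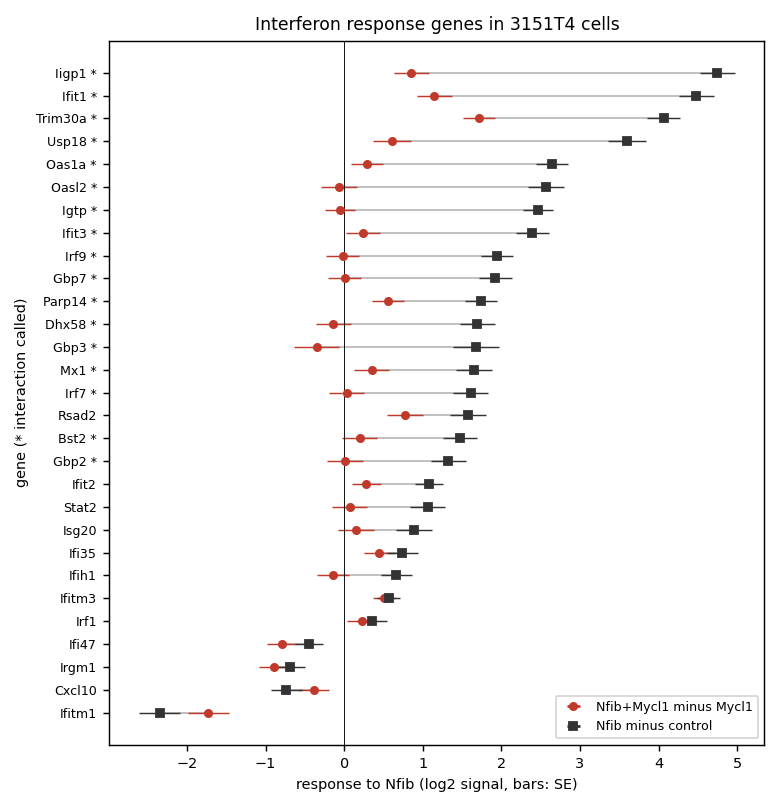
Response to Nfib of 29 interferon response genes, with Mycl1 (red circles) and without (black squares), in log2 signal with the SE from the fit as bars, ordered by the response without Mycl1. In the 17 genes marked with a star, whose interaction passed the test, the circle lies left of the square.

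Promoter sequence is shown for 3 of these genes because they share letters that interferon-activated factors are known to bind. RefSeq promoters (GRCm38.p6, 250 bases before the annotated start) were held for 181 of the 252 genes and for 12 of the 17 interferon genes. The core GAAANNGAAA, searched on both strands and chosen after the values were seen, occurred in 9 of those 12 (75%). It occurred in 3.19% of 6867 tested genes with a promoter and in 3.46% of all 27025 genes of the promoter set. Since the list holds known interferon-stimulated genes, a high share was fixed in advance and does not bear on the interaction. The share among list members that did not pass was not computed. In capitals are the matches, here on the opposite strand, for Ifit1 (chr19:34640639-34640888, plus strand), Ifit3 (chr19:34583279-34583528, plus strand) and Gbp2 (chr3:142620413-142620662, plus strand).
Ifit1: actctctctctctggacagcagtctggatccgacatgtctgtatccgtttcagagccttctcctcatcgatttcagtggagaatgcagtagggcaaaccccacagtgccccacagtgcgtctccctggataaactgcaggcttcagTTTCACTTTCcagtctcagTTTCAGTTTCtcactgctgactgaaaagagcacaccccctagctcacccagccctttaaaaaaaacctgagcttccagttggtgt
Ifit3: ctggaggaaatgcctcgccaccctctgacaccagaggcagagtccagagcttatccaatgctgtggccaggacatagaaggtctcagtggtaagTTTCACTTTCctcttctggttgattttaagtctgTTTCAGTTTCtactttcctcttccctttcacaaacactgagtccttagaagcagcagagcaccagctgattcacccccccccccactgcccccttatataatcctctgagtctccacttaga
Gbp2: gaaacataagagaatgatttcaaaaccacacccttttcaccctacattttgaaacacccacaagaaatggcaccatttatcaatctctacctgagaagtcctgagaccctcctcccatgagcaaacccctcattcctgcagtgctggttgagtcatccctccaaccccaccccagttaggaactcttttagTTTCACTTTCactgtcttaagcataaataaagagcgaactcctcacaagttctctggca
The matches start 104 and 85 bases before the start of Ifit1, 156 and 122 bases before that of Ifit3 and 59 bases before that of Gbp2. A match describes the letters alone.

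Airway secretory genes, which mark the secretory cells of the bronchial lining, showed the same direction in 5 of 9 tested members, with 0 positive. The shares over all genes were 2.25% negative and 0.736% positive. This list too was chosen with earlier results of these data known, so its share is a description and no independent support. The list's median interaction was -1.39, from medians of 0.12 with Mycl1 and 1.22 without. Ces2g, a carboxylesterase, read 4.52 and 4.62 in Nfib+Mycl1 cells, 1.69 and 1.71 in Mycl1 cells, 8.53 and 8.98 in Nfib cells and 1.97 and 1.62 in control cells. The transcript was at the floor without Nfib, and its fitted rise, measured from that floor, was 2.87 with Mycl1 and 6.96 without (interaction -4.09 ± 0.31 SE, adjusted p = 6.09e-07).

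Bpifb1, a secreted protein of the airway surface, read 8.21 and 7.40 in Nfib+Mycl1 cells, 4.15 and 4.40 in Mycl1 cells, 12.72 and 12.51 in Nfib cells and 5.38 and 5.24 in control cells. Slpi, a secreted inhibitor of leukocyte elastase, read 8.67 and 8.60 in Nfib+Mycl1 cells, 3.13 and 3.14 in Mycl1 cells, 11.92 and 11.49 in Nfib cells and 3.75 and 3.55 in control cells. Both rose strongly on either background. Slpi rose by 5.49 with Mycl1 and by 8.06 without (interaction -2.56 ± 0.29 SE, adjusted p = 3.6e-05), and Bpifb1 by 3.53 and 7.31 (-3.78 ± 0.34 SE, adjusted p = 2.9e-06). Lcn2 and Aldh3a1 also had negative interactions, of -2.11 and -1.39, and their responses with Mycl1 were 0.18 and -0.17.

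The promoter of Ces2g is printed because it carries the NFI site TTGGC at 2 places, in capitals, starting 95 and 30 bases before the gene's start (chr8:104961468-104961717, plus strand).
Ces2g: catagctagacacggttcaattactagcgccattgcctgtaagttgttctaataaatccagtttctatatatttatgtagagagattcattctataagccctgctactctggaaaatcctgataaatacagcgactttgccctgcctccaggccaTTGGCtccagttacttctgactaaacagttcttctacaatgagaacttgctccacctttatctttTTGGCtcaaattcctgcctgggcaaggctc
TTGGC alone is common. Counted by gene, it occurred on either strand in 76 of 127 weakened rises with a promoter (59.8%) and in 14 of 40 weakened falls (35%). The shares were 51.1% of tested genes and 45.3% of all genes with a promoter. An inverted pair of TTGGC arms with 5 bases between was found in 0 genes of either class and in 12 of 27025 genes in all (0.0444%). The E-box CACGTG occurred in 13 weakened rises (10.2%) and 6 weakened falls (15%), against 10.2% of tested genes and 6.86% of all genes with a promoter.

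Chemokine and acute-phase genes, which attract leukocytes or are secreted in inflammation, had 7 negative interactions and 1 positive one in 26 tested members. The shares over all genes were 2.25% and 0.736%. The list's median interaction was -0.52, with medians of 0.49 with Mycl1 and 0.97 without. Cxcl5, a neutrophil chemokine, read 4.40 and 4.07 in Nfib+Mycl1 cells, 3.03 and 2.87 in Mycl1 cells, 9.35 and 8.46 in Nfib cells and 3.80 and 3.72 in control cells. It was high in Nfib cells and within 1 log2 unit of control in Nfib+Mycl1 cells (interaction -3.86 ± 0.37 SE, adjusted p = 5.16e-06). Orm1 and Orm2, the near-identical orosomucoids of plasma, whose probe sets may share signal, averaged log2 2.66 and 2.42 in Nfib+Mycl1 cells and 6.46 and 5.72 in Nfib cells. Their interactions were -3.65 and -3.46. Saa3, Cxcl14, Hp and Cxcl15 were also negative, and the positive member was Il1rn, the interleukin 1 receptor antagonist, which fell by 0.78 with Mycl1 and by 2.32 without. Of 5 complement genes, C1ra and Clu had negative interactions, against 2.25% of all genes.

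Extracellular matrix genes split both ways, with 5 negative and 4 positive interactions in 45 tested, against 2.25% and 0.736% of all genes. The list's median interaction was 0.04. The negative ones were Eln, Col15a1, Lum, Mfap4 and Ccn5, and the positive ones Col6a1, Col6a2, Col18a1 and Ccn2. Eln, the elastic fibre protein elastin, read 5.22 and 5.09 in Nfib+Mycl1 cells, 2.93 and 2.77 in Mycl1 cells, 9.81 and 9.64 in Nfib cells and 2.94 and 3.14 in control cells. Its rise was 2.30 with Mycl1 and 6.68 without (interaction -4.38 ± 0.29 SE, adjusted p = 1.36e-07). Mfap4, a protein of elastic fibres, rose by 1.01 and 3.24 (interaction -2.23), and Col15a1, a basement membrane collagen, by 0.94 and 3.47 (interaction -2.54).

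Col6a1 and Col6a2 encode chains of collagen VI and are 2 of the 6 strengthened rises. Col6a2 read 11.18 and 11.05 in Nfib+Mycl1 cells, 6.74 and 7.26 in Mycl1 cells, 12.16 and 12.20 in Nfib cells and 9.72 and 10.23 in control cells. Mycl1 alone lowered it by 2.97, and Nfib raised it by 4.12 with Mycl1 and by 2.2 without (interaction 1.91 ± 0.28 SE, adjusted p = 0.000451). The level with both vectors was still below that of Nfib cells. Where linear signals rather than log2 changes are added, the departure of Col6a2 turned to -0.75. Col6a1 showed a rise of 2.18 with Mycl1 and 1.03 without (interaction 1.16 ± 0.22 SE, adjusted p = 0.00532). The summed signal of the 10 fibroblast markers, given above, also differed between the groups. Among 19 tested fibroblast genes Lum and Thy1 were negative and Vcan, Col6a1 and Col6a2 positive, against 2.25% and 0.736% of all genes.

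Fndc1, a fibronectin-domain protein, resembled Col6a2, with 9.23 and 9.34 in Nfib+Mycl1 cells, 7.08 and 7.43 in Mycl1 cells, 11.09 and 10.72 in Nfib cells and 10.12 and 10.34 in control cells. Its interaction of 1.35 ± 0.26 (SE, adjusted p = 0.00542) turned to -0.50 on the linear scale and did not pass the test without Nfib replicate 4. The other strengthened rises were Sema7a, a membrane-anchored semaphorin (interaction 1.24), Cd74, the class II invariant chain (1.07), and Gps1, a subunit of the COP9 signalosome (0.93). With Mycl1 they rose by 0.86, 0.69 and 0.65, and without it their responses were -0.38, -0.38 and -0.28, none of which passed the test. Each of these 3 lost its call without 1 of several arrays, including Mycl1 replicate 3, Nfib replicate 4 and control replicate 3. Cd74 is itself a leukocyte marker.

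**Figure D4:**
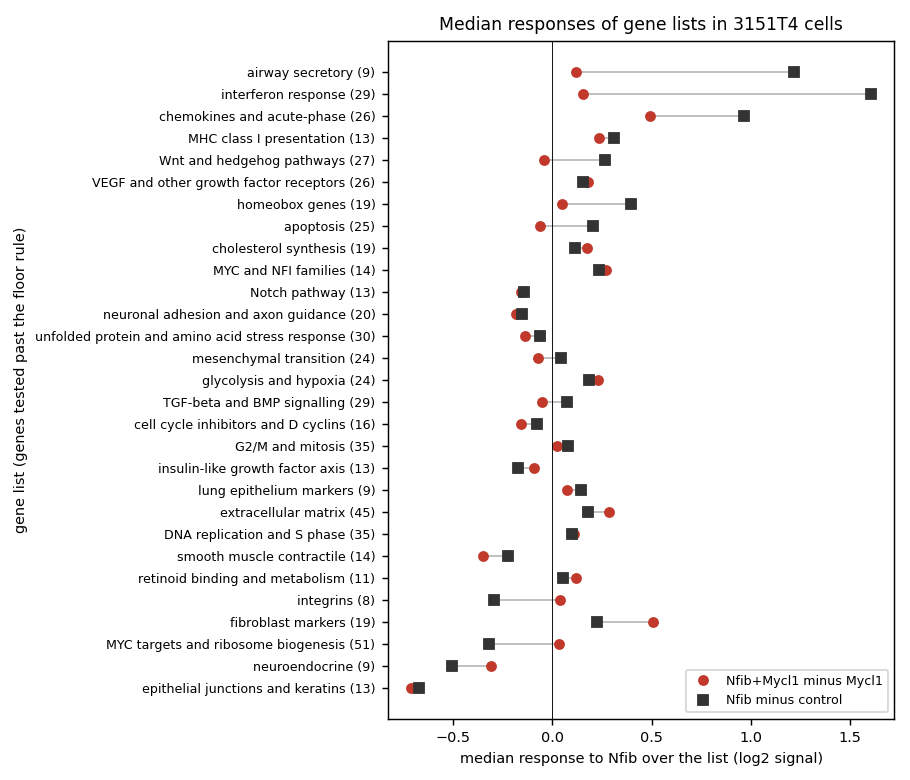
Median response to Nfib of each gene list with at least 8 tested genes, with Mycl1 (red circles) and without (black squares), in log2 signal and ordered by the median interaction, most negative at the top. The airway secretory and interferon lists show the widest gaps, with medians of 0.12 and 0.16 with Mycl1 and 1.22 and 1.61 without.

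Signalling genes held weakened responses in each direction. In the Wnt and hedgehog list 4 of 27 interactions were negative and 1 positive, against 2.25% and 0.736% of all genes. The list's median interaction was -0.23. Lrp5, a Wnt co-receptor, read 5.78 and 6.21 in Nfib+Mycl1 cells, 5.23 and 5.85 in Mycl1 cells, 7.88 and 7.97 in Nfib cells and 5.22 and 5.13 in control cells, an interaction of -2.29 ± 0.33 (SE, adjusted p = 0.000371). Boc, a hedgehog co-receptor, rose by 1.39 with Mycl1 and by 3.59 without (interaction -2.21). Axin2, a Wnt target that restrains the pathway, and Fzd8, a Wnt receptor, were negative as well. Sfrp4, a secreted Wnt antagonist, was the positive member and read 6.37 and 6.33 in Nfib+Mycl1 cells, 8.37 and 8.36 in Mycl1 cells, 5.47 and 5.45 in Nfib cells and 9.35 and 9.85 in control cells. Nfib lowered Sfrp4 by 2.02 with Mycl1 and by 4.14 without (interaction 2.12 ± 0.28 SE, adjusted p = 0.000189).

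The TGF-beta and BMP list had 3 negative and 2 positive interactions in 29, against 2.25% and 0.736% of all genes. Id4, an inhibitor of helix-loop-helix factors, read 2.75 and 3.29 in Nfib+Mycl1 cells, 3.40 and 2.95 in Mycl1 cells, 6.65 and 6.14 in Nfib cells and 3.70 and 3.19 in control cells. It was raised in Nfib cells alone (interaction -3.11 ± 0.38 SE, adjusted p = 7.2e-05). The negative members also included Tgfbr3, a co-receptor, and Id3. Tgfbi, a matrix protein induced by TGF-beta, fell by 0.65 with Mycl1 and by 2.72 without (interaction 2.08), and Inhba, the activin subunit, by 1.00 and 2.46 (interaction 1.46).

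Growth factor genes showed 3 negative and 1 positive interactions in 26, against 2.25% and 0.736% of all genes. Vegfd, a lymphatic growth factor, read 6.11 and 6.31 in Nfib+Mycl1 cells, 4.29 and 3.89 in Mycl1 cells, 10.46 and 10.18 in Nfib cells and 6.22 and 5.95 in control cells. Nfib raised it by 2.12 with Mycl1 and by 4.23 without, while Mycl1 alone lowered it by 2.00, so that Nfib+Mycl1 and control cells overlapped. Fgfr2, a fibroblast growth factor receptor, responded by 0.20 and 1.44 (interaction -1.24), and Kitl, the Kit ligand, by 0.71 and 1.95. Pdgfb, a platelet-derived growth factor, fell by 0.66 with Mycl1 and by 2.12 without (interaction 1.46 ± 0.28 SE, adjusted p = 0.00554).

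Among falls with Nfib that were smaller with Mycl1 were those of the keratins Krt8 and Krt19 and of Dsp. In the list of epithelial junctions and keratins 3 of 13 interactions were positive and 0 negative, against 0.736% and 2.25% of all genes. The list's median interaction was 0.41, although its median responses, -0.71 with Mycl1 and -0.67 without, were close. Krt8, a keratin of simple epithelia, read 6.52 and 6.39 in Nfib+Mycl1 cells, 8.17 and 8.26 in Mycl1 cells, 5.35 and 4.64 in Nfib cells and 8.32 and 8.26 in control cells. Nfib lowered it by 1.76 with Mycl1 and by 3.29 without (interaction 1.53 ± 0.32 SE, adjusted p = 0.00922). Krt8 did not pass the test without Mycl1 replicate 3 or without Nfib replicate 4. Krt19, a type I keratin of simple epithelia, and Dsp, the desmosome protein desmoplakin, had interactions of 1.21 and 1.04. The call of Dsp was lost whichever of the 8 arrays was left out, and that of Krt19 without Nfib or Mycl1 replicate 3 or 4, control replicate 3 or Nfib+Mycl1 replicate 3.

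Car8, a carbonic anhydrase-related protein without enzyme activity, had the most positive interaction, and it read 5.35 and 5.53 in Nfib+Mycl1 cells, 8.0 and 7.44 in Mycl1 cells, 3.99 and 4.62 in Nfib cells and 8.57 and 9.42 in control cells. It fell by 2.28 with Mycl1 and by 4.69 without (interaction 2.41 ± 0.40 SE, adjusted p = 0.0017). The sum of its single changes is log2 3.03, close to the floor. This nearness matters for the class, since the sum was under log2 3 in 6 of the 55 weakened falls, and Syn1, the synaptic vesicle protein synapsin 1, lay just inside the limit at 2.07 with an interaction of 1.75. The called gene next inside was Abcb1a, a drug efflux pump, at 2.19 (interaction 1.22), and just outside lay Lgr6 at 1.86 (interaction 1.35) and Dkk2 at 1.58 (interaction 2.23).

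Asb5, an ankyrin repeat and SOCS box protein, read 7.53 and 7.41 in Nfib+Mycl1 cells, 10.33 and 9.63 in Mycl1 cells, 4.10 and 4.77 in Nfib cells and 8.52 and 9.06 in control cells. Nfib lowered it on both backgrounds and Mycl1 raised it on both (interaction 1.85 ± 0.38 SE, adjusted p = 0.00808). With linear signals added, its departure turned to -1.78, and it did not pass without Mycl1 replicate 4. Tspan8, a tetraspanin, differed between the Nfib+Mycl1 arrays themselves, at 5.89 and 4.51 (interaction 1.88, adjusted p = 0.0293), and did not pass without control, Nfib or Mycl1 replicate 3 or without control or Mycl1 replicate 4. Ddc, the aromatic amino acid decarboxylase, was the sole neuroendocrine gene to pass of 9, against 2.99% of all genes in either direction. Ddc fell by 1.61 with Mycl1 and by 2.89 without (interaction 1.28 ± 0.26 SE).

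**Figure D5:**
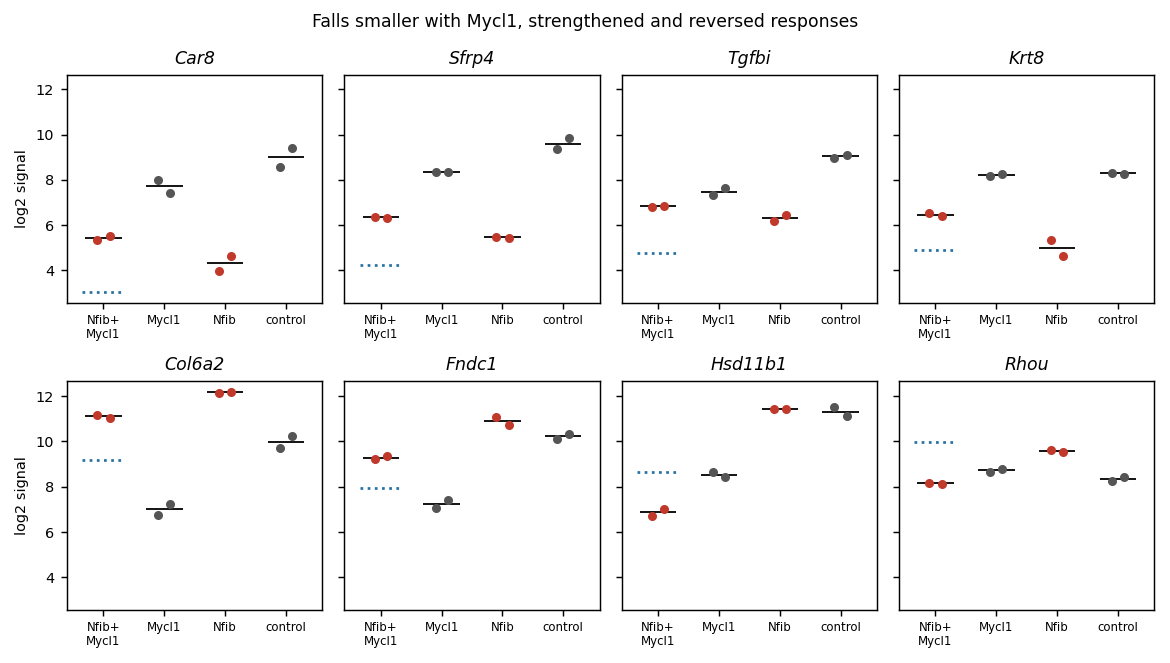
Log2 signal by group of 4 genes whose fall with Nfib was smaller with Mycl1 (top), 2 strengthened rises, 1 strengthened fall and 1 reversal (bottom), with 2 arrays per group as points, their mean as a bar, and a dotted line where the single changes would add up. In the top row and for Col6a2 and Fndc1 the Nfib+Mycl1 arrays lie above the line, and for Hsd11b1 and Rhou below it.

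Strengthened falls were led by Hsd11b1, which activates glucocorticoids. It read 6.72 and 7.04 in Nfib+Mycl1 cells, 8.64 and 8.44 in Mycl1 cells, 11.43 and 11.44 in Nfib cells and 11.51 and 11.12 in control cells. Nfib changed it by -1.66 with Mycl1 and by 0.12 without (adjusted p = 0.703), an interaction of -1.79 ± 0.26 (SE, adjusted p = 0.000371). The others were Mgst2, a microsomal glutathione transferase, Nptx1, a neuronal pentraxin, Ptprd, a receptor tyrosine phosphatase, Sprr3, a cornified envelope protein, Igfbp5, an IGF-binding protein, Arhgap12, Rspo2 and Pou3f1. Mgst2 and Nptx1 fell by 0.88 and 0.85 with Mycl1, and their responses without it were 0.49 and 0.45, neither past the test. Rspo2, a secreted enhancer of Wnt signalling, fell by 2.80 with Mycl1 and by 1.50 without (interaction -1.31, adjusted p = 0.0336), and Pou3f1, a neural POU factor, fell by 1.77 with Mycl1 while its response without was -0.51 (adjusted p = 0.0861). Mgst2 lost its call without Nfib replicate 3 or control replicate 4. Rspo2, Pou3f1, Ptprd and Nptx1 each lost theirs without control replicate 3, Mycl1 replicate 3 or control replicate 4, and without further single arrays.

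In 5 genes Nfib moved the transcript in opposite directions on the 2 backgrounds. Rhou read 8.17 and 8.13 in Nfib+Mycl1 cells, 8.67 and 8.78 in Mycl1 cells, 9.62 and 9.56 in Nfib cells and 8.25 and 8.43 in control cells. Its response was -0.57 with Mycl1 and 1.25 without (interaction -1.82 ± 0.24 SE, adjusted p = 0.000168). Steap4, a metalloreductase, responded by -1.09 and 0.76 (interaction -1.85 ± 0.22 SE, adjusted p = 6.94e-05). Mttp, which loads lipid onto lipoproteins, responded by -1.10 and 0.68, and Alpl, the tissue-nonspecific alkaline phosphatase, by -0.87 and 0.78. Ntm, a neural adhesion molecule, went the other way, with 0.56 with Mycl1 and -0.65 without (interaction 1.21 ± 0.25 SE, adjusted p = 0.00783).

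Several groups had 0 interactions past the test, where 2.99% of all genes in either direction had one, so 0 calls in a list of 8 to 51 genes lies near the share over all genes. None passed among 51 MYC target and ribosome production genes, although Mycl1 alone moved them by a median of 0.77, and their median interaction was 0.31, from medians of 0.03 with Mycl1 and -0.32 without. None passed among 35 S phase genes and 35 genes of mitosis, with median interactions of 0.05 and -0.06. The 16 cell cycle inhibitors and D cyclins, 13 Notch, 30 stress response, 19 cholesterol synthesis, 25 apoptosis, 8 integrin and 11 retinoid genes had 0 likewise. Counted over the 8427 genes that remained after the floor rule, 1133 had an unadjusted p under 0.05 for the interaction.

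Single members of other lists, named after their values were seen, also passed the test, as did 2.99% of all genes. Car9, a hypoxia-induced carbonic anhydrase, rose by 5.73 with Mycl1 and by 8.13 without (interaction -2.40), Lhx8, a LIM homeobox factor, by 5.71 and 7.26 (-1.54), and Hopx, a homeodomain protein of alveolar cells, by 2.81 and 5.12 (-2.31). Slit2, an axon guidance ligand, rose by 1.41 and 2.89 (-1.48), and Ntn1, another guidance ligand, fell without Mycl1 by 1.29 (interaction 1.07). Among smooth muscle genes Actg2 fell by 3.18 and 4.65 (interaction 1.47) and Mylk had an interaction of -1.30. Mmp3, Plvap and Igfbp5 were the single members of the mesenchymal, endothelial and insulin-like growth factor lists, with interactions of -1.30, -1.56 and -0.91.

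Other probe sets of the named genes were read where the array held them. All 24 such probe sets, in 17 genes, had an interaction of the same sign as the probe set used, but only 13 of them passed the test and 11 did not. Those that did not were often smaller. For Col6a2 the other probe set gave 0.75 (adjusted p = 0.251), against 1.91 for the one used, for Mttp -0.89 (adjusted p = 0.316) against -1.77, and for Fgfr2 -0.66 (adjusted p = 0.425) against -1.24. Those of Ptprd gave -0.77 and -0.31 against -1.22, and Dsp, Pdgfb, Tspan8, Tgfbi and Krt8 each had at least 1 that did not pass.

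The interaction was also set against that of line 3583T3, the other line of the series, measured with the same vectors. In that line the Mycl signal of Nfib+Mycl1 replicate 2 was 2.67 and that of Nfib replicate 2 was 10.22, which goes against both labels. With all 16 arrays as labelled, the interaction differed between the lines in 34 genes, 34 lower in 3151T4 and 0 higher, and with these 2 libraries left out it differed in 108 genes, 91 lower and 17 higher. Agtr2, Scara5, Ecrg4, Eln, Bpifb1, Orm2, Slpi, Igtp, Rhou and Cd74 were among the 34. The floor rule was applied to the levels of 3151T4 alone, so sums under the floor in 3583T3 were not left out. The interaction of Ecrg4 was -4.71 in 3151T4 and -0.05 in 3583T3, a difference of -4.66 (adjusted p = 0.000123), and of -5.01 (adjusted p = 1.53e-05) without the doubted libraries. For Eln the values were -4.38 in 3151T4 and -0.38 in 3583T3, a difference of -4.00 (adjusted p = 0.00976).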

How the data were processed

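Messenger RNA of 16 mouse cell line samples was measured on Affymetrix arrays from 100 ng of total RNA after NuGEN Ovation amplification and biotin labelling, per the labels' protocols. The authors deposited GCRMA signals, 1 for each array and probe set; the submitters' processing notes name GCRMA 2.20.0 and R 2.11.0. That the deposited values are log2 was taken from their range, since the labels do not state it. Of 22690 probe sets, 64 were controls, 20380 had 1 gene symbol, 691 several and 1555 none; 20351 of the first kind were found in the reference by gene number, 0 symbols changed, and no value column was left out (0).

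For each of 12393 genes the brightest probe set on average over the 8 arrays stood for the gene. The 8473 genes over log2 4 on at least 2 arrays were tested, so a gene could enter through the arrays of a single group. A mean per group was fitted with limma 3.58.1 in R 4.3.3 (eBayes with a mean-variance trend, 4 residual and 15.8 total degrees of freedom), with Benjamini-Hochberg adjustment over all 8473 genes and a threshold of 0.05. Line 3583T3 entered a fit of 16 arrays for the difference between lines alone. The script was tested on simulated data.

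Replicate numbers come from the titles. The labels do not say that replicates were separate cultures, so p-values measure only how far these samples differ, possibly for technical reasons. The number of arrays limits the precision. The members, gene lists and tests were chosen with earlier results of these data known. Named genes are all Mycl, Nfib and Mycn probe sets, the 6 largest interactions of each class, and the 3 with the smallest p in each list with at least 3 called members, without clone names. Other list members were named after their values were seen. Alternatives were the filter, probe set choice, normalization, trend, array weights, replicate block, floor rule, linear additivity, fits with the other line, and leaving out each array.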

Additional observations from a re-analysis of the deposited data

Results flagged for a closer look

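The interaction differed between the lines in 34 genes with all 16 arrays, by a test of the difference itself, and 687 genes had an unadjusted p under 0.05. The values are interaction in 3151T4 minus interaction in 3583T3 on the log2 scale. Among the named genes the difference was -5.13 for Agtr2, -4.83 for Scara5, -4.66 for Ecrg4, -4.00 for Eln, -3.58 for Bpifb1, -3.53 for Igtp, -3.41 for Orm2, -2.86 for Rhou and -2.62 for Slpi. For Cd74 it was -7.00, since the interaction was 1.07 in 3151T4 and 8.07 in 3583T3. The floor rule was applied to the levels of 3151T4 alone. Whether the single changes of Cd74, a leukocyte marker, add up to a readable level in 3583T3 was not tested. Each of these 10 differences passed the test also without the 2 libraries of 3583T3 whose Mycl signal goes against their labels. Without them, the Nfib and the Nfib+Mycl1 group of 3583T3 hold 1 array each, which is assumed to vary like the others. Why the lines differed was not tested.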

How the results depend on the processing

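The 50 named genes were refitted under 20 settings with a test, which gave 989 results. Of these 875 stayed on the same side of the threshold, 114 kept the direction but no longer passed, 65 of those with 1 array left out, and 0 reversed; 25 genes passed under every such setting that gave them a value. Adding linear signals, a setting without a test, kept the direction of 47 genes and turned that of Asb5 to -1.78, Col6a2 to -0.75 and Fndc1 to -0.50. A shared fit of 8 groups over 16 arrays, which takes in the doubted libraries of 3583T3, gave 98 interactions (9 higher, 89 lower), with 86 weakened rises, 7 weakened falls, 2 strengthened rises, 2 strengthened falls and 0 reversals; it gave 322 genes for Nfib+Mycl1 against Mycl1 (155 higher, 167 lower) and 1125 for Nfib against control (688 higher, 437 lower). Over 14 arrays, without those libraries, 35 interactions were higher, with 32 weakened falls, 3 strengthened rises, 5 strengthened falls and 2 reversals, and the lines differed in 108 genes (17 higher, 91 lower). Without the floor rule 97 interactions were higher and 90 falls weakened, since more genes are counted. Without the filter there were 5 strengthened falls and 2 reversals, without the trend 8 reversals and with array weights 3.

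The labels do not say that the numbers 3 and 4 mark a shared batch. Correlations of deviations between groups ran from -0.11 to 0.33 and exceeded 0.1 in 4 of 6 pairs of groups, not in all, so the samples were treated as sharing only a number. The replicate block gave 312 interactions, against 252 without it, and 14 strengthened falls. With 1 array left out the interaction passed in 162 to 396 genes (23 to 81 higher, 135 to 315 lower), with 129 to 256 weakened rises, 20 to 53 weakened falls, 2 to 22 strengthened rises, 3 to 37 strengthened falls and 1 to 13 reversals. Nfib+Mycl1 against Mycl1 then gave 394 to 939 genes (181 to 438 higher, 209 to 507 lower), and Nfib against control 1117 to 1838 (654 to 1093 higher, 455 to 746 lower). Leaving out an array puts 1 sample in a group, which is assumed to vary like the others. The causes of these shifts were not tested. Levels near log2 2 have no order, so the sizes of falls to the floor and of rises from it depend on the floor.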
